A study of Oryctolagus cuniculus with 3 samples.

Results

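S100 proteins are small calcium-binding proteins built around EF-hand loops, which change shape when calcium binds and then dock onto partner proteins. Some members act inside the cell with annexins and other scaffold proteins. S100A8, S100A9 and S100A12 are also released by neutrophils and by stressed surface epithelia, where S100A8 and S100A9 pair as calprotectin and withhold metal ions from microbes. In mammals most S100 genes sit in the epidermal differentiation complex, a gene cluster that also holds genes of the cornified envelope.

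The transcripts of 10 S100 genes, chosen by name, were looked up in RNA-seq tables of RCE1(5T5), a rabbit corneal epithelial cell line. Of the 10, 8 were in the tables under their symbol (S100A1, S100A6, S100A8, S100A9, S100A10, S100A11, S100A12 and S100A14), out of 20536 gene names in all. S100A4 and S100A16 were not analysed here. The study followed the cells through differentiation in culture with 1 library for each stage: a non-differentiated one at 4 days, a committed one at 6 days and a terminally differentiated one at 10 days. All 3 cultures grew on a feeder layer of 3T3 mouse fibroblasts, stopped from dividing by mitomycin C and taken off with EDTA ahead of the RNA extraction. The medium was DMEM-F12-Ham with fetal calf serum, insulin, transferrin, hydrocortisone, triiodothyronine, cholera toxin, adenine and epidermal growth factor. The cells are a single line, and no genotype or treatment other than time in culture separates the stages.

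The libraries held 10171693, 12582706 and 10899578 fragments at days 4, 6 and 10. With 1 library for each stage, stage, day and library cannot be told apart, no difference has a replicate check, and no p-value is given. The brackets are 95% intervals that cover counting error only. Levels of 1 gene between stages are in CPM, counts per 1000000 fragments scaled by trimmed mean of M values (TMM), and levels between genes are in the authors' TPM, which divides by coding length. Genes with 1 CPM or more in at least 1 library count as measured, which left 12818 genes, all 8 S100 genes among them. S100A8, S100A9 and S100A12 reached 1 CPM on days 6 and 10 but not on day 4, and S100A1 reached it on day 4 alone, so each passed only where it was higher. The words rose and fell are kept for differences of log2(CPM + 1) of 2-fold or more. For the corneal label, KRT12, a keratin of corneal epithelium, had 0, 19.3 and 120.7 CPM at days 4, 6 and 10. KRT15, a keratin of the limbal and basal epithelium, was at 15.1, 104.2 and 540.2 CPM. PAX6, a regulator of eye identity, was at 42.2, 127.1 and 358 CPM. Of the 11 corneal markers measured, 6 rose and 0 fell between day 10 and day 4, against 17.1% and 15.8% of all measured genes. Not all went up: CDH1 was at 291, 209 and 155 CPM and EPCAM at 127, 95.1 and 95.3 CPM. KRT5 was at 15650, 23374 and 13552 CPM. KRT12 had 0 fragments on day 4, so it does not bear on the label of that library. KRT3, another listed corneal marker, was at 149.6 CPM on day 4, 954 on day 6 and 2018 on day 10.

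S100A8, S100A9 and S100A12 had 10 fragments or fewer in the non-differentiated library and 595 or more in the committed one. S100A9, one chain of calprotectin, had 9, 3450 and 904 fragments at days 4, 6 and 10, which is 0.826, 286 and 85.1 CPM. S100A8, the other chain, had 2, 595 and 322 fragments, or 0.184, 49.3 and 30.3 CPM. S100A12, a ligand of the receptor for advanced glycation end products in human, had 10, 2107 and 1097 fragments, or 0.918, 174.7 and 103.3 CPM. All 3 were lowest on day 4 and highest on day 6, and on day 10 they lay between these levels.

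Between day 6 and day 4 the rise was 346-fold for S100A9 [182 to 758], 269-fold for S100A8 [74.1 to 2225] and 190-fold for S100A12 [103.3 to 398]. The wide interval of S100A8 comes from its 2 fragments on day 4. On the log2(CPM + 1) scale the differences were 7.30, 5.41 and 6.52. Ranked by this rise among the 12818 measured genes, S100A9 was in place 1, S100A12 in place 2 and S100A8 in place 4. S100A9 kept place 1 under all 11 alternative settings, while S100A12 ranged over places 2 to 4 and S100A8 over places 3 to 8. The 4-fold and 1.5-fold thresholds among these settings change calls only and could not move a rank. Dropping the filter adds only genes below 1 CPM, and the 5 CPM minimum only removes genes. Neither could displace S100A9 from place 1. The log2 differences of S100A8, S100A9 and S100A12 depend on the pseudocount, as their day 4 levels lie below 1 CPM, while the folds do not use it.

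After commitment the members of this trio were lower to different degrees. Day 10 CPM was 29.8% of the day 6 value for S100A9, 61.5% for S100A8 and 59.1% for S100A12. S100A9 fell 3.36-fold [3.12 to 3.62], and its log2 difference of -1.74 was the 105th largest fall among the 12818 genes. That place depended on the pseudocount: it was 33 with 5 CPM and 311 with 0.1 CPM. S100A8 at 1.63-fold lower [1.42 to 1.87] and S100A12 at 1.69-fold lower [1.57 to 1.82] did not reach the 2-fold threshold. The intervals of S100A8 and S100A12 overlap each other, and neither overlaps that of S100A9. Against day 4, all 3 were still far higher on day 10: S100A8 by 165-fold [45.4 to 1370], S100A12 by 112.6-fold [61 to 235] and S100A9 by 103.1-fold [54.1 to 226].

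The order of abundance within the trio differed between day 6 and day 10. Per length, S100A9 was at 573 TPM on day 6, S100A12 at 344 TPM and S100A8 at 153 TPM. On day 10 S100A12 was at 202 TPM, S100A9 at 170.8 TPM and S100A8 at 92.9 TPM. The TPM of S100A9 was 1.84 times that of S100A8 on day 10 and 3.74 times on day 6. The S100A9 values sum 2 coding sequences with equal counts in each library, so these tables do not tell them apart.

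**Figure D1:**
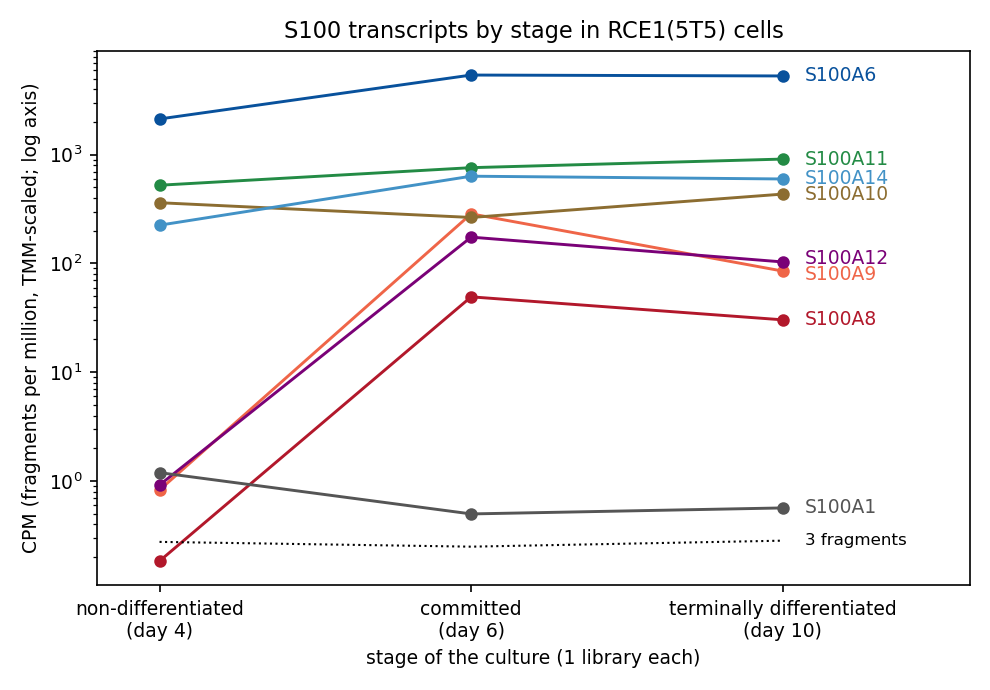
CPM of the 8 S100 genes on a log axis against the 3 stages, with 1 library for each point; the dotted line marks 3 fragments. S100A8, S100A9 and S100A12 lie below 1 CPM on day 4 and between 49.3 and 286 CPM on day 6, while S100A6 lies at 2134 CPM or more in each library.

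S100A6, also called calcyclin, was the most abundant of the S100 transcripts per length at every stage. It had 2134, 5407 and 5304 CPM at days 4, 6 and 10. Days 6 and 10 were close to each other and both well above day 4. It rose 2.53-fold between day 6 and day 4 [2.5 to 2.57] and day 10 was at 0.981 of day 6 [0.970 to 0.992].

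Per length, S100A6 was the most abundant transcript of all genes on days 6 and 10, at 14564 and 14297 TPM, and was in place 4 on day 4 at 7542 TPM. On day 4 the keratin KRT5, with 8930 TPM, was the most abundant. The rise of S100A6 is the one S100 rise that depended on the scaling. By TPM, day 6 was at 1.93 times and day 10 at 1.90 times the day 4 level, both short of 2-fold. The TPM of all genes had a median log2 difference of -0.30 between day 6 and day 4, and S100A6 lay 1.25 above that median. Part of its fragments were shared with other coding sequences, since its deposited counts are not whole, and the shared part cannot be recovered.

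S100A14, a member found mainly in epithelia, had 225, 635 and 599 CPM at days 4, 6 and 10. Its course resembled that of S100A6, with a rise of 2.82-fold between day 6 and day 4 [2.70 to 2.95] and day 10 at 0.943 of day 6 [0.912 to 0.975]. By TPM the rise was 2.10-fold. Its day 6 count of 7655.5 fragments is not whole, so fragments of S100A14 were also shared with other coding sequences. S100A6 and S100A14 were the closest pair among the 8 genes, at a Euclidean distance of 0.162 in the log2 differences of day 6 from day 4 and of day 10 from day 6. The next pair, S100A1 and S100A10, was at 0.656. That distance is not read as a like course, since the pseudocount shrinks the differences of S100A1, which had 13, 6 and 6 fragments.

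S100A11, a partner of annexin A1, was at 524, 761 and 913 CPM at days 4, 6 and 10. It was higher at each later stage, by 1.45-fold for day 6 against day 4 [1.4 to 1.5] and by 1.20-fold for day 10 against day 6 [1.17 to 1.23]. Neither step reached 2-fold, and neither did the 1.74-fold difference between day 10 and day 4 [1.68 to 1.80]. Its partner ANXA1 was at 8686, 12659 and 12871 CPM on the 3 days. The TPM of S100A11 was 0.212 of that of ANXA1 on day 4, 0.218 on day 6 and 0.251 on day 10, a nearly level ratio.

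S100A10, which does not bind calcium and pairs with annexin A2 at the membrane, was lower in the committed library than in the other two. It had 362, 265 and 435 CPM at days 4, 6 and 10. Day 6 was at 0.732 of day 4 [0.698 to 0.767] and day 10 at 1.64 times day 6 [1.57 to 1.72]. Neither difference reached 2-fold. The log2 difference between day 10 and day 4 was 0.26 with CPM but -0.10 with the deposited TPM, so its direction over the whole interval depended on the scaling.

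ANXA2, the annexin partner of S100A10, was at 4682, 5797 and 3110 CPM at days 4, 6 and 10, highest on the day when S100A10 was lowest. AHNAK, a giant scaffold protein that binds the complex of S100A10 and annexin A2, was at 2238, 1723 and 2665 CPM and was also lowest on day 6. The TPM of S100A10 was 0.262 of that of ANXA2 on day 4, 0.157 on day 6 and 0.488 on day 10. These are RNA ratios in 1 library each, and the differences of ANXA2 and AHNAK did not reach 2-fold either.

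S100A1, a gene of heart and skeletal muscle, was close to the detection limit, with 13, 6 and 6 fragments at days 4, 6 and 10. In CPM these were 1.19, 0.498 and 0.565, against 0.275, 0.249 and 0.283 CPM for 3 fragments on those days. Day 6 was at 0.417 of day 4 [0.13 to 1.18], so a difference was not detectable at this depth. Between day 6 and day 4, S100A1 was counted as a fall with the deposited TPM and with a pseudocount of 0.1 CPM, but not otherwise.

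Counted together, between day 6 and day 4, 5 of the 8 S100 genes rose and 0 fell (S100A8, S100A9, S100A12, S100A6 and S100A14), against 8.06% of all measured genes that rose and 6.73% that fell. Their median log2 difference was 1.42, against 0 over all measured genes. S100A8, S100A9 and S100A12 were below 1 CPM on day 4 and passed the filter only through days 6 and 10, where they were high. The 8 genes were also chosen with earlier results of these data known, so the counts and medians only describe them. With the deposited TPM, 4 of the 8 rose and 1 fell, against 4.53% and 13.2% of all genes. The share of rises among all changed genes was 54.5% with TMM scaling, 39.3% without TMM and 25.5% with TPM. Between day 10 and day 6, 0 of the 8 rose and 1 fell, S100A9, against 8.25% and 7.1% of all genes, and the median was -0.06 against -0.01 over all genes. Between day 10 and day 4 those 5 genes again rose and 0 fell, against 17.1% and 15.8% of all genes; the median was 1.36 against 0.01. The share of rises was 52.0% with TMM and 31.9% with TPM in that comparison. The comparisons share libraries and are not separate results.

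**Figure D2:**
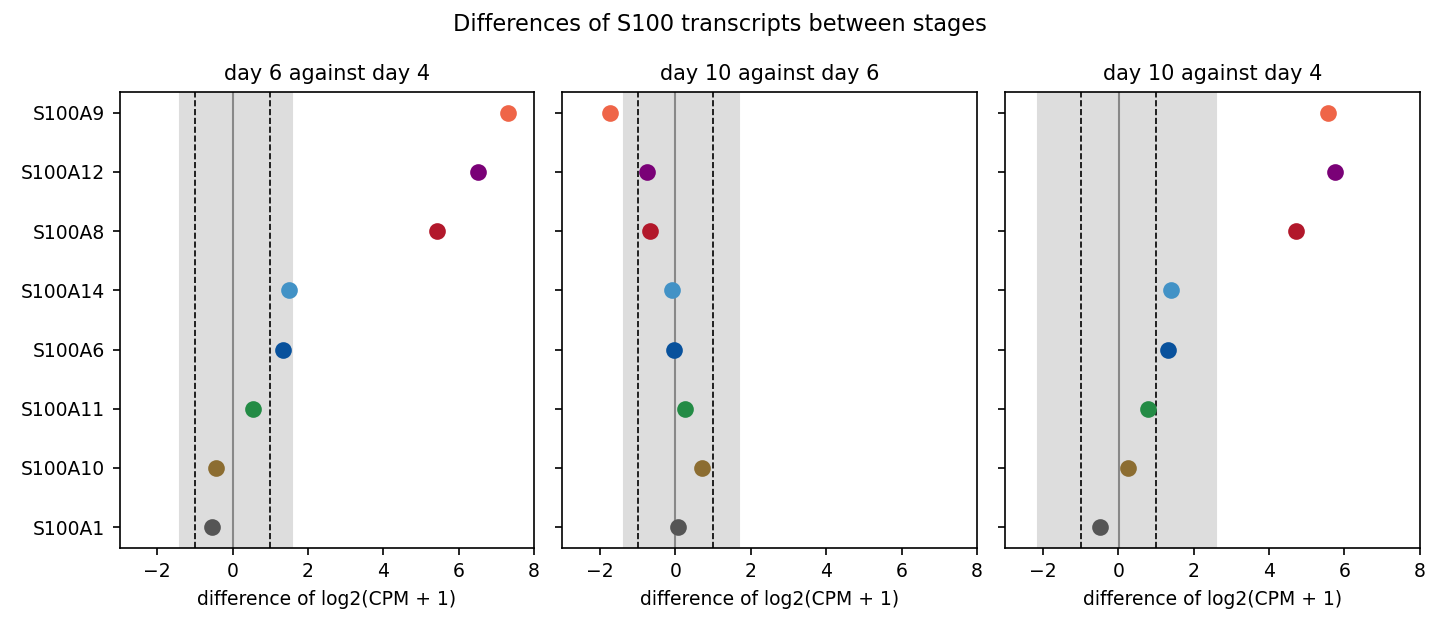
Difference of log2(CPM + 1) for the 8 S100 genes in the 3 comparisons of stages; the grey band holds the central 95% of all measured genes, the grey line is their median and the dashed lines mark 2-fold. S100A8, S100A9 and S100A12 lie far above the band for day 6 against day 4, where it ends at 1.57, and S100A9 lies below the band for day 10 against day 6, where it starts at -1.36.

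As a family, the 8 S100 genes took a larger share of the libraries after day 4. They held 0.348%, 0.726% and 0.728% of all fragments at days 4, 6 and 10. In TPM their sum was 10971 on day 4, 19531 on day 6 and 19317 on day 10. S100A6 made up 68.7%, 74.6% and 74.0% of that sum. The trio S100A8, S100A9 and S100A12 made up 0.0492% on day 4, 5.48% on day 6 and 2.41% on day 10.

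**Figure D3:**
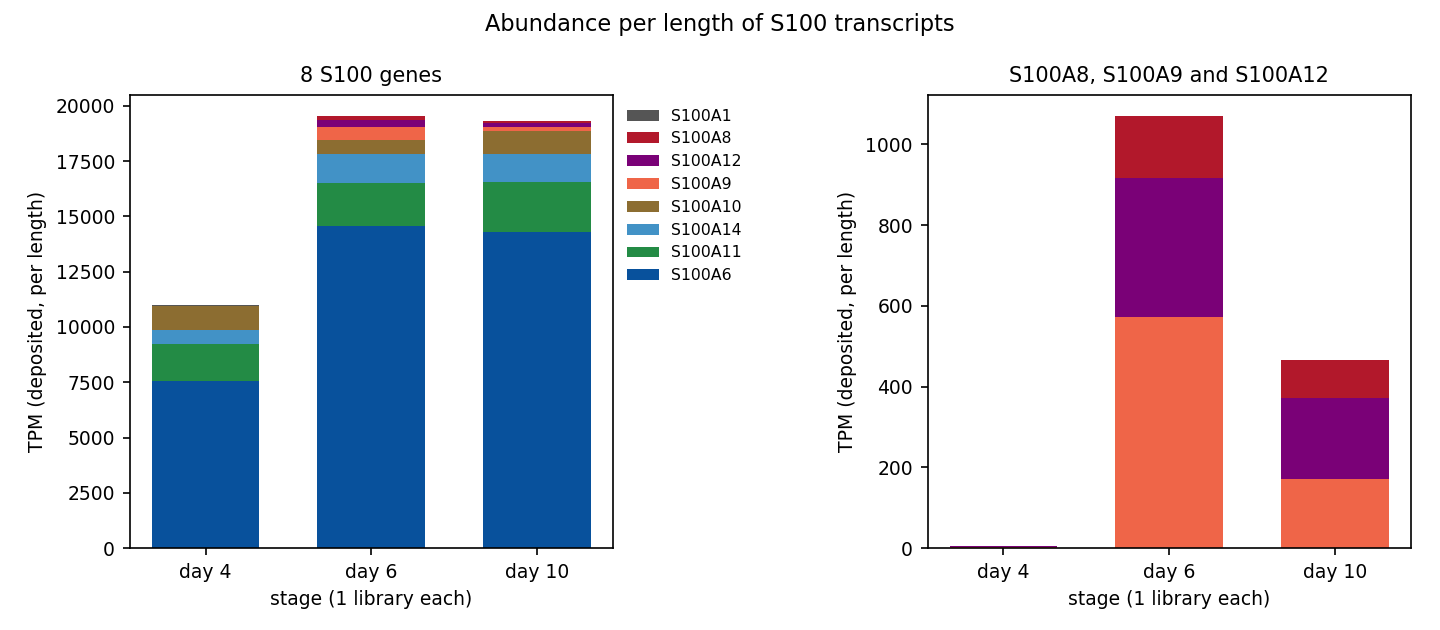
Deposited TPM of the 8 S100 genes stacked by stage (left) and of S100A8, S100A9 and S100A12 alone on their own axis (right), with 1 library for each bar. The left bars reach 10971, 19531 and 19317 TPM and consist mostly of S100A6; the right bars reach 5.40, 1070 and 465.7 TPM.

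Coding lengths implied by the tables were 270 to 399 nt for the 7 S100 genes with enough coverage to compute one, against a median of 1221 nt over measured genes. Of 1132 other measured genes with a coding length of at most 450 nt, 9.81% rose and 3.80% fell between day 6 and day 4, with a median log2 difference of 0.21. The part of coding length in the S100 differences was not tested.

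LOC100345691, which carries the symbol S100A13 in RefSeq, had 9.45, 36.2 and 45.5 CPM at days 4, 6 and 10, a rise of 3.83-fold between day 6 and day 4 [3.09 to 4.80]. S100A3 had 21, 35 and 10 fragments on the 3 days and fell 3.08-fold between day 10 and day 6 [1.49 to 6.98]. S100Z had 7 fragments or fewer in each library. S100A5, S100B and S100G had 0 fragments in all 3 libraries, and S100P had 2, all on day 10. S100PBP, a binding protein of S100P, was at 3.95, 7.96 and 15.3 CPM, and rose between day 10 and day 4. In all, of 8 further genes with an S100 symbol 3 were measured. Of these, 1 rose and 0 fell between day 6 and day 4, 0 rose and 1 fell between day 10 and day 6, and 2 rose and 0 fell between day 10 and day 4. All measured genes gave 8.06% and 6.73%, 8.25% and 7.1%, and 17.1% and 15.8%.

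By RefSeq gene order on the mOryCun1.1 assembly, S100A8, S100A12 and S100A9 lie next to each other, with S100A12 listed there without a symbol as LOC100008703. The strip of protein-coding genes from SLC27A3 to THEM4, which spans the cluster, holds 49 genes, of which 45 were matched to the tables. Of the 19 measured genes in it that are not among the 8, 3 rose and 1 fell between day 6 and day 4, 7 rose and 1 fell between day 10 and day 6, and 10 rose and 2 fell between day 10 and day 4. All measured genes gave 8.06% and 6.73%, 8.25% and 7.1%, and 17.1% and 15.8% in these comparisons. The 7 risers between day 10 and day 6 all lie between S100A9 and S100A11. All of them but LOC100352933 were measured only through day 10, so no rise of the whole strip is read from the counts. The strip was chosen after its values were seen.

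The risers near the S100 genes at commitment included S100A13 and LOC103344972. In RefSeq order LOC103344972 lies between S100A16 and S100A5, inside the run of S100 genes, and has no symbol. Whether it is itself an S100 gene was not determined. LOC103344972 had 534, 1320 and 1779 CPM at days 4, 6 and 10, a rise of 2.47-fold between day 6 and day 4 [2.40 to 2.55]. Its deposited counts are not whole, so part of its fragments were shared with other coding sequences. At 3416 TPM on day 6 it was more abundant per length than each of the 8 S100 genes except S100A6. S100A1, next to S100A13, did not rise.

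The genes between S100A9 and S100A11 include those of the cornified envelope, and 9 genes of the stretch were measured. By log2(CPM + 1), 0 of the 9 rose between day 6 and day 4, with differences of -0.35 to 0.82, and 7 rose between day 10 and day 6, against 8.06% and 8.25% of all genes. Of these 7 genes, LOC100352933 alone reached 1 CPM before day 10; the other 6 were measured only through the day on which they were high, so nothing is read from the count. At such low levels the scale also hides differences: LOC100351764 had 1, 11 and 74 fragments and was 9.94-fold higher on day 6 than on day 4 [1.44 to 428], and LOC100352933 had 7, 23 and 77 fragments and was 2.97-fold higher [1.23 to 8.19]. TCHHL1, a trichohyalin-like gene with an S100 domain, had 8, 9 and 155 fragments at days 4, 6 and 10, and rose 19.6-fold between day 10 and day 6 [10.0 to 43.6]. SPRR3, a cornified envelope precursor, had 3, 9 and 66 fragments and rose 8.33-fold in that interval [4.13 to 19]. These genes stayed low, at 27.3 CPM or less on day 10. S100A8, S100A12 and S100A9 were lower on day 10 than on day 6, over the same interval.

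**Figure D4:**
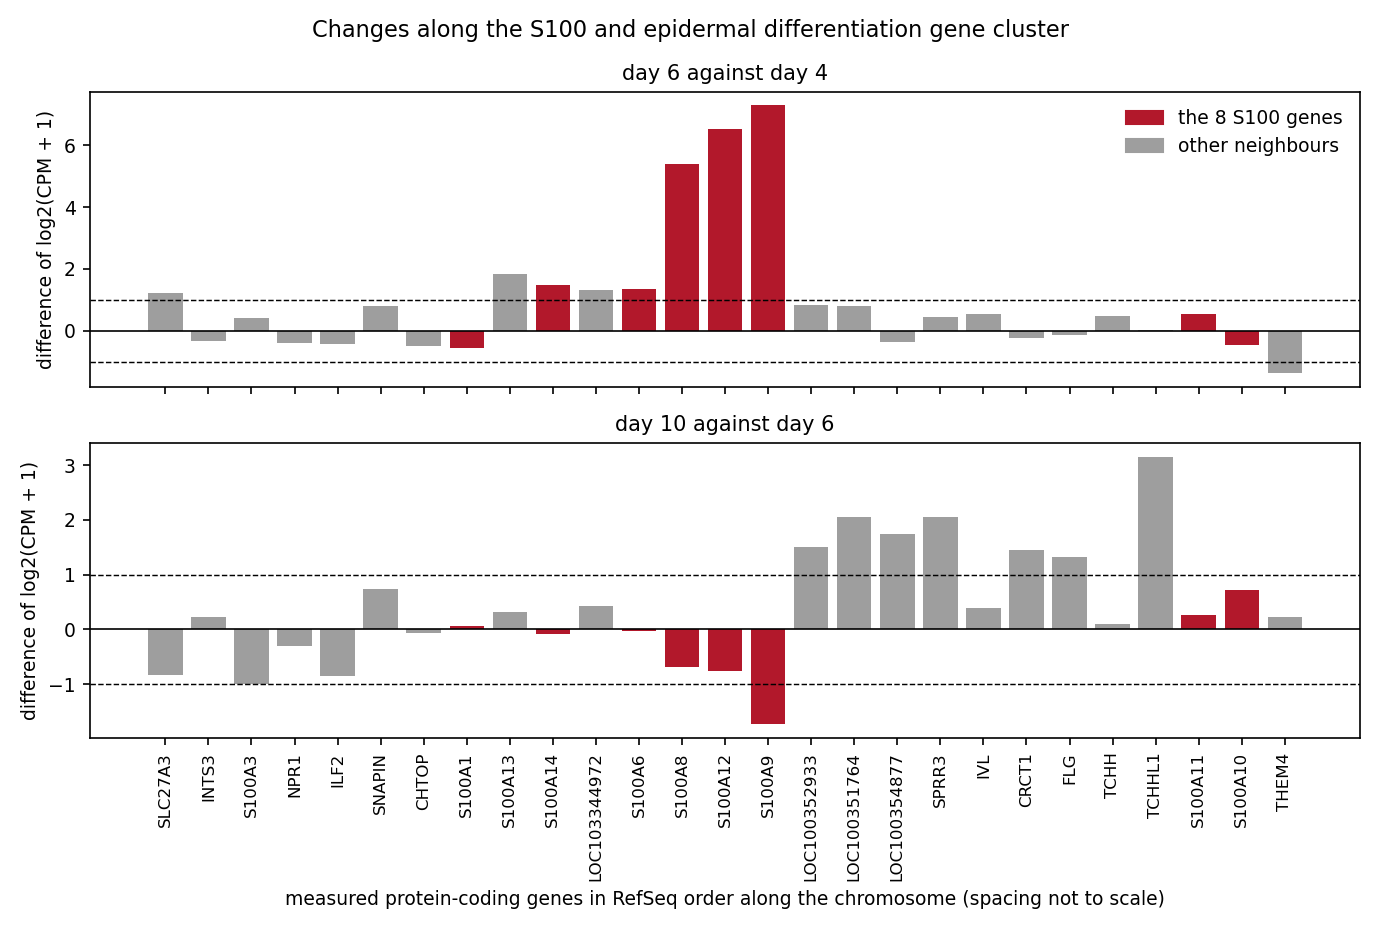
Difference of log2(CPM + 1) for day 6 against day 4 (top) and day 10 against day 6 (bottom) of the measured protein-coding genes in RefSeq order from SLC27A3 to THEM4; dashed lines mark 2-fold. The 3 tallest bars at the top, 5.41, 6.52 and 7.30, are the adjacent S100A8, S100A12 and S100A9, and the bars above 2-fold at the bottom stand to their right.

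Among named genes with at least 10 CPM in their highest library, 8088 in all, those with the course most like S100A8 over the 3 libraries were IFI44L, CXCL10 and ISG15, at Euclidean distances of 1.39, 1.66 and 1.78 in the successive log2 differences. For S100A9 they were RSAD2, IFI44L and IFIT5, at 3.29, 3.54 and 3.65, and for S100A12 IFI44L, CXCL10 and RSAD2, at 2.47, 2.77 and 2.86. IFI44L, for instance, was at 0.918, 32.3 and 28.7 CPM at days 4, 6 and 10. CXCL10, a chemokine, was at 0.459, 18.7 and 11.5 CPM. All were far from the trio compared with the nearest genes of the other members. For S100A6 these included DIP2A and DHRS1 and for S100A14 they were RPS21, IGSF9 and ZNF512, at 0.0864 or less; for S100A11 CIZ1, ARID4A and TMEM245, for S100A10 SRPK2, RHEB and MAN1A2 and for S100A1 NAB1, ACTL7B and ENTPD3, at 0.0294 or less. With 13, 6 and 6 fragments, the log2 differences of S100A1 are shrunk by the pseudocount, so its nearest genes are not read as sharing its course.

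Of the genes for receptors of released S100 proteins, 6 of 9 were measured and 0 rose or fell in any of the 3 comparisons. Rises and falls over all measured genes were 8.06% and 6.73%, 8.25% and 7.1%, and 17.1% and 15.8%, so few calls would be looked for among 6 genes. AGER, the receptor for advanced glycation end products, had 5, 6 and 12 fragments at days 4, 6 and 10. TLR4, a pattern recognition receptor, had 2, 2 and 0 fragments, and the scavenger receptor CD36 had 0 in all 3 libraries.

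Of 10 annexin and scaffold partners, 1 rose and 1 fell between day 6 and day 4, 0 rose and 1 fell between day 10 and day 6, and 1 rose and 2 fell between day 10 and day 4. Shares of all measured genes were 8.06% and 6.73%, 8.25% and 7.1%, and 17.1% and 15.8%, so these counts are not read as a result about the partners. The riser was TRPV6, a calcium channel regulated by S100A10, with 5, 64 and 59 fragments on the 3 days. DYSF, a membrane repair protein, was at 14.3, 3.90 and 1.32 CPM and fell in all 3 comparisons. CACYBP, the calcyclin-binding protein that takes its name from S100A6, was at 269, 179.9 and 115.4 CPM and fell between day 10 and day 4, where S100A6 rose.

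Among antimicrobial and alarm genes 16 were measured, of which 4 rose and 0 fell between day 6 and day 4, 2 rose and 3 fell between day 10 and day 6, and 8 rose and 4 fell between day 10 and day 4. Over all measured genes the shares were 8.06% and 6.73%, 8.25% and 7.1%, and 17.1% and 15.8%. WFDC2, a secreted protease inhibitor, was at 2.84, 83.5 and 1071 CPM. DEFB1, an epithelial defensin, was at 2.02, 42.2 and 78.6 CPM, and SAA3, an acute phase protein, at 6.06, 86.9 and 87.2 CPM. None of these 3 genes was lower on day 10 than on day 6, as S100A8, S100A9 and S100A12 were. NFKBIZ, a regulator of alarm genes, was at 8.63, 19.2 and 30.05 CPM, and IL36G, an epithelial cytokine, at 2.39, 1.74 and 0.188 CPM. CXCL8, a neutrophil chemokine, was at 8.99, 12.1 and 2.92 CPM and fell between day 10 and day 6, as S100A9 did.

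Markers of other cells that carry S100 transcripts were counted beside these results. In bulk RNA, fewer cells of a type and less RNA per cell cannot be told apart. Of 15 myeloid markers 14 were in the tables and 5 of them, TYROBP, FCER1G, ITGAM (LOC100351865 in the tables), CSF3R and CD163, had 0 fragments in all 3 libraries. PTPRC, the common leukocyte antigen, was at 1.47, 1.82 and 1.51 CPM. The summed level of the list was 125.0, 129.5 and 71.9 CPM at days 4, 6 and 10, of which LAPTM5 took 117.8, 121.9 and 61.5 CPM. Of 4 measured, 0 rose or fell between day 6 and day 4 and between day 10 and day 6, and 1 rose, CD207, between day 10 and day 4. Rises were 8.06%, 8.25% and 17.1% of all measured genes and falls 6.73%, 7.1% and 15.8%, so 4 genes are too few to compare. ITGB2 had 23, 22 and 26 fragments, CSF1R 6, 4 and 7, and CD14 9, 3 and 0. The part of myeloid RNA in the levels of S100A8, S100A9 and S100A12 was not tested.

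The 20 fibroblast and feeder markers summed to 7907, 4963 and 3065 CPM at days 4, 6 and 10. Of 19 measured, 0 rose and 6 fell between day 6 and day 4, 1 rose and 7 fell between day 10 and day 6, and 1 rose and 15 fell between day 10 and day 4. Over all measured genes 8.06% rose and 6.73% fell, then 8.25% and 7.1%, and 17.1% and 15.8%. LUM had 0 fragments. THBS1, an adhesive matrix protein, was at 413.7, 35.9 and 5.27 CPM, TAGLN at 54.6, 10.04 and 12.1 CPM and COL6A2 at 282.5, 154.8 and 38.1 CPM, while THY1 was at 19.6, 16.8 and 76.9 CPM. The sum was lower at each later stage, while S100A6, which fibroblasts also express, was higher on days 6 and 10 than on day 4. The part of feeder or fibroblast RNA in the S100 differences was not tested. Of the 11 corneal epithelial markers measured, 7 rose and 0 fell between day 6 and day 4, 5 rose and 0 fell between day 10 and day 6, and 6 rose and 0 fell between day 10 and day 4. The same shares of all genes stand beside these counts. CDH1 was lower at each later stage, at 291, 209 and 155 CPM, without reaching 2-fold.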

How the data were processed

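RNA was sequenced from 1 library for each of 3 stages, made with an Illumina TruSeq kit per the labels' protocols. Each deposited table lists 38696 coding sequences. The fragment and read columns the authors deposited are estimated counts, since many entries are fractional. Also deposited, per the file headers, were a raw transcript count, which is a coverage signal, and FPKM, RPKM and TPM values, normalized for length and depth. The submitters' processing notes name OryCun2.0 as the build. The sources used here do not give the aligner, counter or strand setting, and reads of genes that overlap on either strand may be mixed.

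Fragment counts were summed per gene name, rounded and scaled with TMM factors of 1.07, 0.958 and 0.974 (edgeR 4.0.16, R 4.3.3); the tests had been planned for whole counts. Differences used log2(CPM + 1) and a 2-fold threshold. Folds are ratios of CPM with exact 95% Clopper-Pearson intervals. PCR copies are not independent molecules, so intervals cover counting error only. Coding length was computed as reads times an implied read length of 75 nt over the coverage signal. RefSeq mOryCun1.1 gave symbols for LOC names and gene order; its build differs, so no coordinates are given, and no sequences were used here.

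Members and lists were chosen with earlier results of these data known. Named were all members, every other S100 gene in the files, ANXA1, ANXA2, AGER and TLR4, up to 2 of the largest rises and falls of a list, and the 3 genes most like each member, some of which are not reported here; other genes were named after their values were seen. The 11 alternatives covered scaling (none, DESeq2 1.42.0 size factors, TPM), read counts, the highest coding sequence, pseudocount, filter and threshold.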

Additional observations from a re-analysis of the deposited data

How the results depend on the processing

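With 1 library for each stage, leaving out a replicate could not be tried, and the labels carry no replicate number. No paired analysis was possible because each stage has 1 library. Under 11 alternatives the 5 rises between day 6 and day 4, the 1 fall between day 10 and day 6 and the 5 rises between day 10 and day 4 kept their number except as follows. A 4-fold threshold left 3, 0 and 3 changed genes, the 3 being S100A8, S100A9 and S100A12 both times, and a 1.5-fold threshold gave 4 between day 10 and day 6 and 6 between day 10 and day 4. With TPM, S100A6 dropped out of both counts of rises, S100A1 was counted as a fall between day 6 and day 4, and the sign of S100A10 between day 10 and day 4 turned; a pseudocount of 0.1 CPM also counted S100A1 as a fall. The pseudocount set the log2 difference between day 6 and day 4 of the low-starting genes, which spanned 5.64 to 8.27 for S100A9, 4.92 to 7.42 for S100A12 and 3.39 to 7.45 for S100A8. S100A1 was not measured by read counts or at a minimum of 5 CPM. Over all genes there were 1033 rises and 863 falls between day 6 and day 4, against 558 and 1629 with TPM, 472 and 451 with a pseudocount of 5 CPM, 151 and 86 at 4-fold and 2510 and 2310 at 1.5-fold. Between day 10 and day 6, 1058 rose and 910 fell, against 562 and 452, 215 and 32, and 2449 and 2458 with those last 3 settings. Between day 10 and day 4, 2190 rose and 2024 fell, against 1324 and 1319, 603 and 396, and 3715 and 3542 with those 3 settings, and TPM gave 1382 rises. Without TMM the median of all genes moved to -0.14 between day 6 and day 4, and with TPM to -0.31 between day 10 and day 4. The 2 fragments of S100A8 and 9 of S100A9 on day 4 limit how closely their folds are known.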

Other observations

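Of 16 measured genes of other EF-hand proteins, 1 rose and 0 fell between day 6 and day 4, where 8.06% and 6.73% of all genes did so. Then 1 rose and 2 fell between day 10 and day 6, against 8.25% and 7.1%. Between day 10 and day 4, 2 rose and 1 fell, against 17.1% and 15.8%. CALM3, a calmodulin gene, was at 100.1, 223 and 85.9 CPM on days 4, 6 and 10. It rose between day 6 and day 4 and fell between day 10 and day 6, as S100A9 did. CALM2, which also encodes calmodulin, was at 554, 772 and 1258 CPM and rose between day 10 and day 4. NUCB2, a calcium-binding protein of the secretory route, rose between day 10 and day 6 and was at 29.7, 36.9 and 76.5 CPM. EFHD2, an actin-binding EF-hand protein, was at 136, 71 and 36.6 CPM and fell between day 10 and day 4.

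Of 13 measured transcription factors reported at S100 promoters in other species, 2 rose and 1 fell between day 6 and day 4, 1 rose and 0 fell between day 10 and day 6, and 3 rose and 1 fell between day 10 and day 4. The shares over all measured genes were 8.06% and 6.73%, 8.25% and 7.1%, and 17.1% and 15.8%. FOSL2, an AP-1 subunit, was at 17.3, 38.6 and 78.4 CPM on the 3 days, and its relative FOSL1 at 77.1, 3.81 and 3.11 CPM. TP63, a regulator of stratified epithelia, was at 55.8, 161.6 and 119.7 CPM. CEBPA was at 19, 32.8 and 27.6 CPM, CEBPB at 29.7, 43 and 31.2 CPM and CEBPD at 23.8, 42.5 and 51.4 CPM, and of these CEBPD alone passed 2-fold, between day 10 and day 4. SPI1, a factor of myeloid cells, had 0 fragments in all 3 libraries. Of 7 measured genes in the list of neighbouring epidermal differentiation genes, 0 rose and 1 fell, THEM4, between day 6 and day 4, 4 rose and 0 fell between day 10 and day 6, and 4 rose and 1 fell between day 10 and day 4. Rises were seen in 8.25% and 17.1% of all genes in the last 2 comparisons. The 4 risers, TCHHL1, SPRR3, FLG and CRCT1, were below 1 CPM on days 4 and 6. They were measured only through day 10, the day on which they were high, so nothing is read from these counts.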
